A study of Homo sapiens with 8 samples.

Results

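The genes that HEK293T cells transcribe in the absence of any TET1 construct were read from the arrays of 2 of the 8 stable cell lines of the study, empty vector #1 and #2. The study introduced the catalytic domain of TET1, alone, fused to a methyl-CpG-binding domain, or as an inactive fusion, into this line to ask which silenced genes are reactivated. Empty vector cells carried the expression plasmid without an insert, were selected with blasticidin S, and were expanded from picked colonies, so each line is 1 clone. Both lines were cultured in DMEM containing 10% fetal bovine serum, and Cy-3 labeled cRNA from each was hybridized to 1 array.

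Both members were chosen by their titles, and the other 6 arrays entered no step. On each array the signals of 34127 non-control probes were used, of which 25422 (74.5%) carried a gene symbol, for 19483 genes in all. Each value is a log2 signal relative to the 75th percentile of its own array, which is therefore 0, and values are given in the order of #1 and #2. A gene is represented by its probe with the highest mean, and it is called here when any of its probes was well above background on both arrays. A gene described as on neither array had no probe well above background on either. Brightness depends on the probe as well as on the transcript, so bands of signal sort probes and do not rank transcripts. With 1 array for each of 2 clones, no test was possible, and the labels name no repeated culture of either clone.

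HEK293T is a widely used kidney-derived line that descends from HEK293, made from human embryonic kidney cells by transformation with adenovirus DNA, and it also carries the SV40 large T antigen. The viral proteins bind and inactivate cellular proteins that otherwise hold the cell cycle in check. The line is used as a host for transfected receptors and channels because many such genes are thought to be little expressed in it, and the origin of the embryonic cells has been debated, with kidney, neuronal, and adrenal cells as candidates.

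DNA methylation of CpG dinucleotides at promoters goes with silencing, and CpG-rich promoters are mostly free of it in normal cells. To set CpG-rich promoters beside a promoter with few CpGs, the stretches just before the start sites of 4 genes are given. The study assayed 3 of these genes, and the other, ALB, is a liver gene with few CpGs. TRH and MAL were assayed in HEK293T cells, but GSTP1 in the prostate cancer line LNCaP, where it is silenced. They were taken from RefSeq (GRCh38.p14, plus strand) and lie at chr11:67583562-67583811 for GSTP1, chr3:129974470-129974719 for TRH, chr2:95025458-95025707 for MAL, and chr4:73404037-73404286 for ALB, each the 250 bases upstream of the annotated start. Capitals mark the CpG dinucleotides.
GSTP1: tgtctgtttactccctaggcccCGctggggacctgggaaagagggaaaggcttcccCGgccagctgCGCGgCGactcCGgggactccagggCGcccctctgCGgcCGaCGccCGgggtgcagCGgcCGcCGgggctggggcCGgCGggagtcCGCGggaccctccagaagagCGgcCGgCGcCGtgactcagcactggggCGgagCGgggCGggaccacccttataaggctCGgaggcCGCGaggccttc
TRH: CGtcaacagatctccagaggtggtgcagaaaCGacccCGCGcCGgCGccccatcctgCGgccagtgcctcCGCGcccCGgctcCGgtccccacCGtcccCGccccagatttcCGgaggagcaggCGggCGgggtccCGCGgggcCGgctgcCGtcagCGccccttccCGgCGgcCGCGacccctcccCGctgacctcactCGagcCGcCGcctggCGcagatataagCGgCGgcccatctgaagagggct
MAL: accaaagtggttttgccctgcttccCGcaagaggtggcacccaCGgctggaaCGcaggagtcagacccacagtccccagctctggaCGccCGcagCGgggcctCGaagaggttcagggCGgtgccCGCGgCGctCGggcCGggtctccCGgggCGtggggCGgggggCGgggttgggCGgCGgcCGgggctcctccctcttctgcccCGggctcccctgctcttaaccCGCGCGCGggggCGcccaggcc
ALB: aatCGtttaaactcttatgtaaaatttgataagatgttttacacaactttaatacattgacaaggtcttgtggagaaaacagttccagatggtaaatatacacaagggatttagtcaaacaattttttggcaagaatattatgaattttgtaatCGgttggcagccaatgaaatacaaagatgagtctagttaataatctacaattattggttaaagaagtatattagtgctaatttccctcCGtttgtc
These stretches held 28 CpGs for GSTP1, 32 for TRH, 26 for MAL, and 3 for ALB. GSTP1 was above the 90th percentile of both arrays, at 7.25 and 7.08, whereas TRH, MAL, and ALB were not well above background on either array. The CpG-rich promoters of GSTP1 and TRH therefore stood before genes at opposite ends of the signal range.

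The arrays differed little in quality. No spot was saturated, and 65.8% of probes on #1 and 68.2% on #2 were well above background. The 75th percentile was an intensity of 353 on #1 and 447 on #2. The lowest signals well above background lay at -5.82 and -6.01, which mark the floor of the scale, and the 153 negative control spots had median values of -7.85 and -8.08. For probes spotted 10 times, the median SD over the spots was 0.0622 on #1 and 0.0594 on #2.

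On both arrays 21988 probes (64.4%) were well above background, and 3246 probes (9.51%) were at or above the 90th percentile. Of the 19483 genes, 14137 (72.6%) were called and 4648 (23.9%) had no probe well above background on either array. A high band, at or above the 90th percentile on both arrays, held 2540 genes (13%), and a low band, well above background on both arrays but under the median of both, held 2031 genes (10.4%). Called genes were 74.1% of the 18100 protein-coding genes and 46.1% of the 851 lncRNA genes. These shares are the background against which each class of genes is described.

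The brightest signals came mostly from the translation machinery. Of the 20 genes with the highest mean signal, SNAR-A3, a small noncoding RNA, was first at 9.85 and 9.72, followed by the ribosomal protein gene RPS2 at 9.62 and 9.54. RPS18, RPL13, RPL6, RPL23, RPL38, RPL23A, RPL41, RPS27, RPL7A, RPS28, RPS15, RPL13A, and RPL37A were also among them, as were the ribosomal RNA gene RNA28SN5, the nucleolar protein gene NPM1, and the elongation factor gene EEF1A1. The zinc finger gene ZNF865 also belonged to the 20, at 8.98 and 9.16, but its other probe was not well above background on either array, at -7.96 and -5.96.

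All 79 cytosolic ribosomal protein genes were called and 78 were in the high band, with a median of 8.38. The exception was RPL27A, which has 1 probe on the array and read -2.85 and -3.14. All 32 translation initiation and elongation factors were called, 26 of them high, from EEF1A1 at 8.87 and 8.66 down to EIF5 at -0.69 and -0.50. The ribosomal protein genes thus had the highest median signal of the 64 lists examined, on both arrays.

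The subunits of the 20S proteasome, the core that degrades tagged proteins, were all high (14 of 14), led by PSMB1 at 6.61 and 6.43. Their counterparts found in immune, thymic, or germ cells differed, since 2 of 5 were called. PSMB10, an immunoproteasome subunit, read 3.75 and 3.57 and PSMB9 read -1.47 and -1.70, but PSMB8, PSMB11, and PSMA8 were not well above background on either array. All 8 subunits of the chaperonin TRiC, which folds actin and tubulin, were called, with CCT4 at 7.40 and 7.06 and CCT5 the exception to the high band at -2.89 and -2.65.

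Energy metabolism was called for most members, and most exceptions were isoforms of other tissues. Of the 81 subunits of the respiratory chain and ATP synthase, 77 were called and 73 were high, while COX4I2, COX7A1, and COX7B2, isoforms of lung, muscle, and testis, were not well above background on either array and ATP5PB was measured on #2 only. Of 26 glycolysis genes, 20 were called, led by LDHB at 7.60 and 7.44, GAPDH at 7.01 and 6.85, and TPI1 at 5.70 and 5.85. The germ cell isoforms GAPDHS, PGK2, and LDHAL6B and the blood cell hexokinase HK3 were not well above background on either array, and the liver form PKLR was so on 1 array only.

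All 42 replication genes were called, 23 of them high. MCM7, a subunit of the helicase that opens DNA at origins, read 6.58 and 6.89, MCM3 5.70 and 5.52, and the sliding clamp gene PCNA 4.14 and 4.12. The lowest member was the licensing factor CDC6, at -2.42 and -2.30. No replication gene fell into the low band.

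Of 24 genes of cell cycle arrest and the response to DNA damage, 23 were called. CDKN2A, which encodes p16 and ARF, was the brightest at 5.35 and 5.86, followed by the BCL2-family genes PMAIP1 at 3.46 and 3.38 and BBC3 at 3.07 and 2.88. MDM2, a ubiquitin ligase gene, read -1.45 and -1.42. CDKN1A, the gene of the cyclin-dependent kinase inhibitor p21, was in the low band at -5.36 and -5.62, close to the floor, and CDKN2B was not well above background on either array. High CDKN2A and low CDKN1A were seen on both arrays.

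Across the 64 lists examined, 7 had every member called and 22 were at or above the share over all genes. The other 42 were under it, and in 27 of these fewer than 50% of the members were called. Those lists were of differentiated tissues, tissue-specific proteasome subunits, receptors, channels, immune genes, drug metabolism, and the genes assayed in the study.

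For the identity of the cells, markers of the developing kidney were all called (8 of 8) while markers of the mature nephron mostly were not. LHX1, a factor of the early nephron, read 1.06 and 1.09, and SALL1 -1.34 and -1.32. PAX2, a regulator of the ureteric bud and nephron progenitors, had a mean of -1.35 and was higher in #2 by 1.31, and its other probe was not well above background. WT1 and PAX8 were in the low band, PAX8 nearest to the floor at -5.51 and -5.53. All 8 developmental markers of the labelled tissue were thus above background, where 72.6% of all genes were called.

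Of 26 kidney development transcription factors, 20 (76.9%) were called, near the share over all genes, 72.6%. FOXC1 was the brightest at 3.04 and 2.96, and FOXD1, a factor of the kidney stroma, read 1.88 and 1.94. HNF4A, HOXA11, OSR1, FOXC2, and TFAP2B were not well above background on either array. Of 12 podocyte genes, 10 (83.3%) were called, with CLIC5 at 1.92 and 1.58 and PODXL at 0.76 and 1.33. The slit diaphragm gene NPHS1 was well above background on 1 array. ACTN4, CD2AP, and NES, which other cell types also express, were among the called genes.

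Fewer genes of the tubule were called. Of 29 proximal tubule genes 13 were called and none was high. The endocytic receptor LRP2 read -0.70 and -0.41 but its partner CUBN was absent from the called genes, as were the organic anion transporters SLC22A6 and SLC22A8. Of 27 distal nephron and collecting duct genes 8 were called, with UMOD at -3.34 and -2.71, while SLC12A1, SLC12A3, AQP2, and the epithelial sodium channel genes SCNN1A, SCNN1B, and SCNN1G were not well above background on either array.

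The neuronal and adrenal genes discussed for this line were mixed. Of 46 neuronal genes, 29 (63.0%) were called, which is under the share over all genes. UCHL1 was the brightest at 5.89 and 6.16, and the neurofilament genes NEFM at 2.51 and 2.50, NEFL at 1.23 and 1.15, and INA at -0.15 and -0.41 were called, but the heavy neurofilament gene NEFH was not well above background on either array. Synaptic and neuronal genes lay on both sides too. RBFOX3, a splicing regulator of mature neurons, read 0.13 and 0.62, and TUBB3, MAPT, GAD1, SYP, SYT1, SNAP25, and SLC17A7 were called, while SYN1, ELAVL3, GAD2, STMN2, and SLC17A6 were not well above background on either array.

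Of 17 genes of the adrenal medulla and sympathetic neurons, 9 were called. TH, which makes the precursor of catecholamines, read -1.31 and -1.20, and PNMT, which makes adrenaline, -2.76 and -3.00. Of the enzymes between them, DDC was called in the low band at -4.68 and -5.73. The other, DBH, and the regulator PHOX2A were not well above background on either array. For the noradrenaline transporter gene SLC6A2, 1 probe read -1.34 on #1 but was left out on #2 as an outlier spot, and the other read -7.96 and -8.17, not well above background. In the adrenal cortex list 7 of 18 genes were called. Among them, FDXR, which passes electrons to steroid-making enzymes in mitochondria, was the only high one, with a mean of 2.89. Some steroid-making enzymes were called at lower signals, CYP17A1 at -2.14 and -2.33, CYP11A1 at -4.86 and -5.34, and CYP21A2 at -5.04 and -4.61. The regulator NR5A1, the cholesterol carrier gene STAR, and the enzyme genes HSD3B2 and CYP11B1 were not well above background on either array.

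Epithelial and mesenchymal genes were called in similar shares, both under the share over all genes, 72.6%. VIM, an intermediate filament gene of mesenchymal cells, was in the high band at 7.13 and 6.99, with the cadherin CDH2 at 2.74 and 2.55. The keratins KRT18 (3.50 and 3.47) and KRT7 (2.90 and 2.62) and the desmosome gene DSP (3.17 and 3.03) were high as well. CDH1, the epithelial cadherin, was in the low band at -4.72 and -5.65, and EPCAM read -3.01 and -4.46. In all, 24 of 39 epithelial genes (61.5%) and 20 of 34 mesenchymal genes (58.8%) were called. Matrix genes of fibroblasts were split. The collagen VI gene COL6A1 was high at 2.46 and 2.53, and COL1A1, COL5A1, COL5A2, COL6A2, SPARC, and LOX were called, whereas FN1, COL1A2, COL3A1, POSTN, and the fibroblast protease gene FAP were not well above background on either array.

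Pluripotency genes were called in 15 of 28 cases. MYC at 4.49 and 4.15 and LIN28B at 3.34 and 3.18 were high, and SOX2 read -0.28 and -0.39. POU5F1 read -3.44 and -1.99, NANOG was well above background on 1 array only, and ZFP42, DPPA4, L1TD1, and PRDM14 were on neither array.

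Markers of foreign cells were near the floor or below it. CD3E, ALB, HBB, and COL3A1 were not well above background on either array, and PTPRC, the pan-leukocyte gene, was in the low band at -4.51 and -5.14. A bulk RNA sample cannot tell fewer cells of a type from less RNA per cell.

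HOX genes, which give cells their position along the body axis, were called in 34 of 39 cases. Of HOXA 9 of 11 genes were called, of HOXB 9 of 10, of HOXC 9 of 9, and of HOXD 7 of 9. HOXB6 at 4.03 and 4.52, HOXB9 at 3.55 and 3.94, HOXA10 at 3.14 and 3.12, and HOXC4 at 2.76 and 3.47 were high, as was the terminal gene HOXD13 at 2.98 and 3.06. HOXB1, at the 3' end of its cluster, and HOXA11, HOXD4, and HOXD12 were not well above background on either array.

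The HOX genes were also shifted between the clones. Of the 34 called, 26 were higher in #2 and 8 were lower, with a median difference of 0.40, whereas 43.1% of all called genes were higher in #2. HOXC8 at -2.54 and -0.94, HOXB5 at -0.72 and 0.70, and HOXD9 at -2.38 and -1.25 were 2-fold or more higher in #2, and no HOX gene was 2-fold lower. The count of genes higher in #2 was 25 after normexp and after median scaling, 27 after quantile normalization, and 34 with spike-in scaling, under which 93.4% of all genes were higher in #2.

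Gene families of differentiated tissues were mostly not called. Of 365 olfactory receptor genes and pseudogenes on the array, 50 (13.7%) were called and none was high, with OR7E37P at 0.85 and 1.91 and OR2H1 at 0.92 and 0.80 the brightest. Of 35 defensins 6 were called, of 25 bitter taste receptors 5, and of 32 genes of the MAGEA, MAGEB, MAGEC, GAGE, XAGE, PAGE, and SSX families 7. The brightest of these last, SSX2 and MAGEA6, read -2.10 and -2.16 and -2.18 and -2.65.

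Genes of single organs behaved alike. Of 46 liver secreted protein genes 15 were called, and APOC1, at 2.87 and 2.85, was the only high one, while ALB, AFP, TTR, APOB, and FGB were not well above background on either array. Of 48 striated muscle genes 21 were called, with the slow troponin gene TNNT1 high at 3.18 and 3.38 and the structural genes TTN, NEB, and MYH1 on neither array. Pancreas genes were called in 11 of 26 cases and photoreceptor genes in 8 of 26, with INS, PDX1, and CRX on neither array.

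Immune genes were called in 24 of 60 cases, and among them CD4 was high at 3.40 and 3.41. CD3E, LCK, MS4A1, PAX5, CSF1R, and MPO were not well above background on either array. MHC class II genes were called in 10 of 13 cases, HLA-DPA1 being the brightest at 1.75 and 0.20, but HLA-DRA and the invariant chain gene CD74, which escorts class II molecules, were on neither array. Of red cell genes 10 of 18 were called, with HBQ1 at -0.30 and -0.51, while HBB and GATA1 were on neither array.

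Some members that stood out from a mostly silent family did not do so on all of their probes. KRTAP2-4, a hair keratin-associated gene in the high band at 3.51 and 3.47, has another probe at -7.20 and -7.51. KRTAP1-3, high at 3.30 and 3.20, has another at -8.08 and -8.29. Keratin-associated genes were called in 40 of 82 cases, and cornified envelope genes in 12 of 33, where LCE1D read 7.17 and 7.12.

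Over the 4925 genes with 2 or more probes, 713 (14.5%) had 1 probe well above background on both arrays and another on neither. Where 2 or more probes of a gene were well above background, the median range between them was 2.13 on the log2 scale. The widest ranges were those of RPL32P3 (12.5), AS3MT (11.9), MAP4 (11.8), NAA38 (11.1), and CCM2L (10.6). For these 713 genes the call depended on which probe was read.

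The host line's own receptors were next. The Wnt and Hedgehog receptors were all called (13 of 13), from SMO at 1.40 and 1.57 to FZD8 at -1.80 and -1.73, and none was high or low. The other G protein-coupled receptors were under the share over all genes. Aminergic receptors were called in 16 of 34 cases, led by the adrenergic receptors ADRA2C at 2.02 and 1.79 and ADRA1A at 0.12 and 0.25, and the muscarinic receptors CHRM1, CHRM4, and CHRM5 were not well above background on either array. Receptors for purines, lipids, and proteases were called in 17 of 35 cases, led by the adenosine receptor ADORA2B at 1.44 and 1.17.

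Of 61 peptide and hormone receptors 23 were called. GALR3, a galanin receptor, was the only high one at 5.27 and 5.16, and the glucagon-like peptide receptor GLP1R, the opioid receptor OPRM1, and the thyrotropin receptor TSHR were not well above background on either array. Chemokine receptors were called in 6 of 22 cases, with CXCR4 at -0.01 and 0.39. The signaling parts behind the receptors were called more often than these peptide and chemokine receptors, but only near the share over all genes, 72.6%. They were 11 of 15 G protein alpha subunits (73.3%), led by GNAS at 6.85 and 6.93, and 17 of 24 cyclases, phospholipases, arrestins, and receptor kinases (70.8%).

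Voltage-gated and transmitter-gated ion channels were under the share over all genes. Voltage-gated sodium and calcium channels were called in 10 of 20 cases, with CACNA1H at 0.68 and 0.84 and CACNA1C at 0.53 and 0.55. Voltage-gated potassium channels were called in 16 of 40 cases, 3 of them in the high band. Transmitter-gated channels were called in 23 of 62, where the nicotinic receptor CHRNA7 read 0.71 and 0.69. GRIA1, GRIN1, and GLRA1 were not well above background on either array.

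Genes of store-operated calcium entry and mechanical force were called above the share over all genes, 72.6%, but TRP channels were under it. Of 16 genes for store-operated entry, calcium pumps, release channels, and PIEZO channels, 14 were called, with PIEZO1 at 0.71 and 1.05, ORAI1 at 0.42 and 0.13, and STIM1 at -0.32 and -0.42. Of 28 TRP channels 16 (57.1%) were called, with TRPC1 at 0.21 and -0.27 and TRPV1 at -0.44 and -0.15.

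Growth factor and steroid receptors lay near the background share. Receptor tyrosine kinases were called in 37 of 54 cases, led by FGFR3 at 3.35 and 3.22, and EGFR read -1.87 and -2.86. Nuclear receptors were called in 34 of 48 cases, led by NR2F6 at 4.86 and 4.48, with the glucocorticoid receptor NR3C1 at 2.14 and 2.04. ESR2 and PGR, which bind estrogen and progesterone, were not well above background on either array.

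Sensors of infection were called less often than the interferon receptor, JAK, and STAT genes. Of the Toll-like receptors and their adaptors 8 of 19 were called, and of the receptors themselves TLR5 alone was, at -2.51 and -2.66. MYD88, the adaptor of most of them, was well above background on 1 array. Of 21 cytosolic sensors and adaptors 13 were called, with ADAR high at 3.29 and 3.35, MAVS at 1.54 and 1.16, and RIGI at -2.76 and -2.40. STING1 read 0.33 and -0.83, CGAS, which makes its ligand, was well above background on 1 array, and IFIH1, IFI16, and AIM2 were on neither array.

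Interferon genes were called in 2 of 17 cases, IFNA4 and IFNL2, both in the low band. Interferon receptor, JAK, and STAT genes were called in 17 of 18 cases, led by IFNGR1 at 2.27 and 2.23, and STAT5A was the exception. A baseline with the receptors of interferon but few interferon transcripts was found in both clones.

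Among drug-handling genes, CYP2W1 stood out. It was the only high gene of 34 cytochrome P450 genes, at 8.10 and 8.67, and 16 of the 34 were called. Among the main hepatic drug-oxidizing enzymes, CYP1A2 at -3.94 and -3.09, CYP2D6 at -3.82 and -3.37, and CYP2E1 at -5.00 and -4.22 were called, whereas CYP3A4 and CYP2C19 were not well above background on either array. Glutathione transferases were called in 14 of 20 cases, led by GSTP1, while GSTT1 was on neither array. Drug efflux transporters were called in 10 of 12 cases, with ABCC5 at 1.06 and 1.53, and uptake transporters of the SLC22, SLCO, SLC15, and SLC47 families in 16 of 38, with SLC22A5, the carnitine transporter, at 0.47 and 0.34.

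The genes that write, read, and remove DNA methylation bear on the use of these cells as the control. Of 14 such enzymes and cofactor genes 13 were called, DNMT3L being the exception. Endogenous TET1 was high at 2.62 and 2.94, TET2 read -1.15 and -1.19, and the maintenance methyltransferase DNMT1 read 2.29 and 2.02. DNMT3B was at 1.22 and 0.50, DNMT3A at -1.04 and -1.02, and the glycosylase TDG, which excises oxidized methylcytosine, was high at 3.73 and 3.48. Of 9 methyl-CpG-binding proteins 8 were called, with MBD2 at 1.36 and 1.25, and ZBTB38 was the exception.

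Of the genes the study assayed by RT-PCR or bisulfite sequencing, 3 of 10 were called, namely GSTP1, the actin gene ACTB at 7.14 and 7.04, and the endogenous control B2M at 3.07 and 2.96. SOX17, a transcription factor gene of endoderm, read -7.96 and -8.18 and MT1M, a metallothionein gene, -7.83 and -7.74, both at the level of the negative control spots. MAL, a membrane protein gene, read -6.79 and -6.12, and TRH, the gene of a hypothalamic hormone, -6.48 and -8.32, also not well above background on either array. MAGEA2B, MAGEA8, and MAGEA9 were on neither array as well.

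The CpG content of the promoter went with the share of genes called. Over the 14544 protein-coding genes with a promoter in RefSeq (80.4% of 18100), the ratio of observed to expected CpG was taken over 300 bases around the start. Of 3343 genes with a ratio under 0.4, 38.1% were called and 2.18% were high. Of 1565 genes from 0.4 to 0.6, 69.6% were called, and of 9636 genes at or above 0.6, 89.0% were called and 19.8% were high. The median signal was -6.62 in the lowest class and 0.01 in the highest. ALB, whose printed stretch held 3 CpGs, had a ratio of 0.481 and so lay in the class from 0.4 to 0.6.

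A CpG-rich promoter did not always go with signal. Of the 9636 genes in the highest class, 840 (8.72%) were not well above background on either array, and TRH and MAL, whose promoters are printed above with ratios of 0.901 and 0.785, were among them. GSTP1, with a ratio of 0.879, was high. Methylation was not measured on these arrays, so the state of the CpGs in either group was not tested.

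The clones agreed closely over most of the range. Across the 21988 probes, the correlation between the clones, across probes of 1 pair of arrays, was 0.988, the median of #2 minus #1 was -0.04, and the SD of the difference was 0.46. It was 0.30 for probes in the high band and 0.50 in the low band. At 2-fold or more, 775 probes (3.52%) were higher in #2 and 206 (0.937%) in #1, or 277 genes (1.96%) and 135 genes (0.955%) of 14133. Clone, culture, and array cannot be told apart here.

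Of genes higher in #2, the widest difference was that of FBXL7, at -5.52 and -1.55 (15.7-fold), but its other probe differed by -0.08. CCN3, a secreted matricellular protein gene, read -4.97 and -2.23. GJB7, LINC00685, ASAP1-IT1, AOC3, TCL1B, GPR171, and LINC01000 were also among the 10 widest. Apart from LINC01000, these genes lay under the array median of #1, which was -3.31.

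Of genes higher in #1, CDH18, a neuronal cadherin gene, read -1.65 and -3.95 (4.93-fold), and PLA2G4A, a phospholipase gene, -0.82 and -2.94. PRUNE2, BEX5, NPTXR, TMOD4, COL6A5, SLC28A1, RAB3C, and INHBA completed the 10 widest. A further 680 genes were well above background on 1 array only, 226 on #1 and 454 on #2. For these the dim array gives a bound, and COL18A1-AS1 at least 13.6-fold, LRRC19 at least 9.07-fold, PIK3IP1 at least 7.80-fold, XCL1 at least 6.77-fold, and S100A1 at least 6.36-fold higher in #1. In #2, IRF4 was at least 5.29-fold and SLC26A5 and LOC100130331 each at least 4.96-fold higher, followed by STARD6 at least 4.57-fold and ASB9 at least 4.19-fold.

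Long noncoding RNAs differed more often than protein-coding genes. Of 392 lncRNA genes, 44 (11.2%) were 2-fold or more higher in #2 and 2 were lower, with a median difference of 0.14, against 207 (1.54%) and 133 of 13417 protein-coding genes with a median of -0.06. The lncRNA median depended on the processing and was 0.02 after normexp background correction and 0.05 after median scaling. Relative to the median of all genes it was 0.19 in the main setting and 0.07 after normexp. Probes without a gene symbol showed the same split, with 411 higher in #2 and 30 lower of 3843. The lncRNA genes on the array were also dimmer, with a median signal of -5.87 against -1.45 for protein-coding genes. Over all probes compared, 2-fold differences were more frequent in the low band (5.73%) than in the high band (1.57%). The part of signal level in the lncRNA counts was not tested.

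Differences between the clones were not spread evenly over the genome. The 14117 placed genes were put into 353 blocks of 38 to 42 neighbours in RefSeq gene order, and 46 blocks (13%) had a median shifted by 0.2 or more from that of all genes, 25 up in #2 and 21 down. The shifted blocks lay on 8 of 23 chromosomes, and on the other 15 the SD of the block medians was 0.0629. Chromosome 9 was higher in #2 along nearly its whole length, with 14 of 15 blocks up. Its median over 594 genes was 0.29, or 0.345 relative to all genes. Chromosome 22 was lower in all 9 blocks, with a median of -0.41 over 352 genes, or -0.362 relative to all genes.

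Chromosome 7 changed sign along its length. Of its first 5 blocks 4 were down in #2, from FAM20C to SNHG15, and 9 blocks from KCTD7 to LRRC61 were up, by as much as 0.46. Of the last 9 blocks of chromosome 1, 6 were down, from FAM78B to PGBD2, and the last block of chromosome 13, from PCCA to CHAMP1, was down by the most, at -0.70. The first block of chromosome 5, PLEKHG4B to TRIO, was up at 0.29. A block of chromosome 6, CDKAL1 to H3C8, was down at -0.35. The last block of chromosome 16, SLC7A5 to URAHP, was up at 0.16, or 0.211 relative to all genes. The block values given here are medians of #2 minus #1, while the cut of 0.2 is relative to the median of all genes.

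The blocks were picked on the same differences, so the 2-fold counts inside them are a description. The 1006 genes in blocks up in #2 were 7.13% of those placed, and 43 of them (4.27%) were 2-fold or more higher in #2 and 3 were lower. The 837 genes in blocks down held 32 (3.82%) that were 2-fold lower and 8 that were higher. Of the 12274 genes in unshifted blocks, 224 (1.83%) were 2-fold or more higher in #2 and 100 (0.815%) were lower. CDKN2A and MCM7 lay in blocks up in #2, at differences of 0.51 and 0.31, while CYP2W1 lay in a block down but was itself higher in #2 by 0.57. None of the 34 called HOX genes lay in a shifted block. On chromosome 7, which carries HOXA, the unshifted block from TWIST1 to HIBADH still stood at -0.15 relative to all genes, between blocks at -0.50 and -0.36. DNA was not assayed in these lines, and the part of copy number in these shifts was not tested.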

How the data were processed

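RNA of HEK293T empty vector #1 and #2 was measured on 1-color Agilent 4x44K arrays, 1 array for each clone. The deposited values are spot intensities that the authors obtained with Agilent Feature Extraction (version 9.5.1 in the submitters' processing notes) with the background subtracted and no scaling of arrays to each other, and the deposited table of the series held the same intensities in all 44495 rows of both arrays. Its other 6 per-sample columns were not used.

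Control spots and outlier-flagged spots (240 on #1 and 227 on #2) were left out, the log2 intensity was centred on the 75th percentile of non-control probes, and the spots of a probe were averaged. The software's flag for signal well above background had to hold in over 50% of the spots of a probe. Symbols, gene order, and promoters came from RefSeq (GRCh38.p14), matched by accession, and probes without a match stayed unnamed. Array coordinates were not used. Where a probe was left out on 1 array, as for 19 probes, another probe of its gene was preferred.

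The labels define 1 group of 2 clones, so shares, medians, and fold differences are given with no test, and the number of arrays limits the precision. The members and gene lists were chosen with earlier results of these data known. Named genes are the 20 brightest, up to 6 of the brightest and the exceptions in each list, the widest differences between clones and between probes, and SOX17, MAL, MT1M, TRH, B2M, ACTB, TET1, and MBD2. All other genes were picked once their values were known. Some genes are left unreported.

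Alternatives were normexp (limma 3.58.1 in R 4.3.3, offset 50, on median spot signals, with backgrounds over 10 times the array median set to the median for 1 and 12 spots), median and quantile scaling, other calls, and leaving out each clone. Spike-in scaling and the settings for blocks were chosen after seeing the data. The calculations, in Python 3.11.15 with numpy 2.4.6, pandas 2.3.3, and matplotlib 3.10.9, were tested on simulated data.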

Additional observations from a re-analysis of the deposited data

How the results depend on the processing

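The counts of probes and genes well above background moved little. Probes well above background on both arrays ranged from 22003 to 26222 against 21988, and on a single array from 22444 to 23278, and genes called ranged from 13201 to 15968 against 14137. Leaving out a clone gave 14374 to 14604 genes. The 2-fold counts between the clones depended on the processing. Against 775 probes higher in #2 and 206 in #1, normexp gave 208 and 22, spike-in scaling (8 spike-ins, chosen after seeing the data) 2592 and 41, and no filter on dim probes 2109 and 1287. The median difference went from -0.04 to 0.48 with spike-in scaling, so the direction of the whole array rests on the scaling. It moved the median of all genes from -0.05 to 0.47, and the shifts of chromosomes are relative to that median. Counting positive and significant spots as called put 58 in place of 37 lists at or above 50%, and the gap in genes called between promoters at or above a CpG ratio of 0.6 and under 0.4 was 37.5 in place of 51.0 percentage points, or 53.2 when every probe of a gene had to be called. Of the counts for single lists 22 moved by over 1.5 times and 298 did not, and of the other values 10 moved and 28 did not. Shifted blocks were 13% in the main setting and 15.1% with 20 and 13.6% with 80 genes a block. They were 15.3% among the brighter genes and 9.92% after normexp. Relative to all genes, chromosome 9 stood at 0.25 after normexp against 0.345 in the main setting. Chromosome 22 stood at -0.26 against -0.362. The causes of these changes were not tested. Signals under the floor have no order. No paired analysis was possible because only 1 group was analysed.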
